A study of Mus musculus with 2 samples.

Results

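The genes described are the 10 that encode NF-κB subunits, their inhibitors and their kinases: Rela, Relb, Rel, Nfkb1, Nfkb2, Nfkbia, Nfkbiz, Tnfaip3, Ikbkb and Chuk. They were chosen by symbol from the 55357 genes listed in each matrix, and all 10 symbols were found. The data are single-cell RNA sequencing of C57BL/6 mouse heart, with 1 Sham library and 1 library of mice that had transverse aortic constriction (TAC), which narrows the aorta with a band and loads the left ventricle with pressure. The TAC mice were males operated on at 8 weeks of age and kept for 6 weeks. The sham mice went through the operation without the banding by the sample label, whereas the series text calls them uninjured, and the label gives neither age nor sex for them. Each library pooled the dissociated cells of 3 to 5 hearts, so animals cannot be told apart and neither condition has a replicate. No difference between Sham and TAC was therefore tested, and every interval below is a 95% interval that covers counting error only.

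NF-κB is a family of transcription factors that act as dimers of the proteins encoded by Rela, Relb, Rel, Nfkb1 and Nfkb2. In resting cells the inhibitor IκBα, encoded by Nfkbia, holds the dimers in the cytoplasm. Cytokine and pattern recognition receptors activate a kinase complex that contains IKKβ (Ikbkb) and IKKα (Chuk), which marks IκBα for degradation and frees the dimers. Several inhibitors are themselves NF-κB target genes, among them Nfkbia and Tnfaip3, which encodes the ubiquitin-editing enzyme A20. In the heart, NF-κB is best known for the inflammatory genes that macrophages, endothelial cells and fibroblasts switch on under stress. RNA levels do not report where the proteins are or whether the kinases are active.

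Because feedback of the factors on their own genes is part of this background, the promoters were searched for the κB consensus, a motif of 10 bases, on both strands. RefSeq windows of 300 bases (250 before and 50 after each transcription start, GRCm38.p6) were found for 6 of the 10 genes: Rela, Rel, Nfkb2, Nfkbia, Tnfaip3 and Chuk. The motif was present in at least 1 window of Rel, Nfkb2, Nfkbia and Tnfaip3 and in no window of Rela or Chuk. For comparison, 8.46% of all 32851 promoter windows hold it. That share is per window, whereas Nfkb2 and Tnfaip3 had more than 1 window in which a match could lie. The bases before the start of Rel, Nfkbia and Tnfaip3 are shown because Rel had a TAC to Sham ratio above 1 and Nfkbia one below 1 in each of the 5 main cell types, and Tnfaip3 is the best known feedback inhibitor beside Nfkbia. Capitals mark the matches, each stretch is written on the strand of its gene, and all 3 genes lie on the minus strand.
Rel, chr11:23770971-23771099: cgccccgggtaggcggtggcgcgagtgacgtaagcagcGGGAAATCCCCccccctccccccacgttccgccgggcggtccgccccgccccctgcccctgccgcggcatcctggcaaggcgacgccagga
Nfkbia, chr12:55492648-55492777: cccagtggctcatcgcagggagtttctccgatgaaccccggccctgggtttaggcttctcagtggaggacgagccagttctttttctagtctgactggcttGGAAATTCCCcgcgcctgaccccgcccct
Tnfaip3, chr10:19015411-19015540: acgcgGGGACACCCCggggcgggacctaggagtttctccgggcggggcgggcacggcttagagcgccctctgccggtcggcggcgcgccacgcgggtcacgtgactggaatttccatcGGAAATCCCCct
The capitals in Rel are a pair of overlapping matches, the first of which begins 92 bases before the start. The match in Nfkbia begins 29 bases before the start, and those in Tnfaip3 begin 125 and 12 bases before it. For Nfkb2, whose promoters overlap exons of other Nfkb2 transcripts, only the matches of the first window are given: GGGAATTCCC at chr19:46304698-46304707, with a second that overlaps it, and GGGGCTTTCC at chr19:46304726-46304735. A match describes the letters and not binding, and no binding was measured.

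UMIs (unique molecular identifiers) each count 1 captured RNA molecule, and 28146691 were listed for Sham and 29108986 for TAC. They came from 9935 and 9932 barcodes, of which 32 sequences occur in both matrices. After filtering, 9472 Sham and 9439 TAC cells were left, with 15047 and 15380 UMIs of the 10 genes. Clusters were named from marker genes, so each name means cells with that type's markers. Of the 11 named types, 5 held over 1000 cells in each library: cardiomyocytes (2512 Sham and 2376 TAC cells), fibroblasts (2290 and 2126), endothelial cells (1904 and 2249), macrophages (1412 and 1344) and pericytes (1062 and 1042). The median mitochondrial share per barcode was 0.459% in Sham and 0.287% in TAC. Markers of cardiomyocytes were found in the other 4 of these types at 3.00% to 6.00% of their cardiomyocyte level, and the macrophage markers C1qa, C1qb, C1qc and Csf1r in the other 4 at 0.435% to 2.29% of their macrophage level. Levels are sums over the cells of a type, given as UMIs per 1000000 UMIs of that type, and fewer cells with RNA of a gene and less RNA per cell are not separated by such a sum.

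Orders and highest levels below are among the 5 main types, since the smaller types held few UMIs and are given apart. The 10 genes were spread unevenly over these types, and macrophages held the highest level of 5 of them in Sham and 6 in TAC. The macrophage interval overlapped that of the next type for Nfkb2 in both libraries, and for Relb and Tnfaip3 in TAC. The share of all genes with their highest level in macrophages was not computed. Against all other cells of the same library, 7 of the 10 genes were at least 2-fold higher in macrophages with an interval above 1, in Sham and in TAC, where 19.0% and 18.6% of all genes were. The 7 were Relb, Rel, Nfkb2, Nfkbia, Nfkbiz, Tnfaip3 and Ikbkb in both libraries. The corresponding counts were 3 and 4 in fibroblasts (17.7% and 16.6% of all genes), 4 and 1 in endothelial cells (14.2% and 14.1%), 1 and 1 in pericytes (10.5% and 9.48%) and 0 and 0 in cardiomyocytes (14.4% and 14.2%). Cardiomyocytes held 52.0% of the UMIs in Sham and 49.0% in TAC, so the other cells of each comparison were largely cardiomyocytes, in which most of these genes were low.

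**Figure D1:**
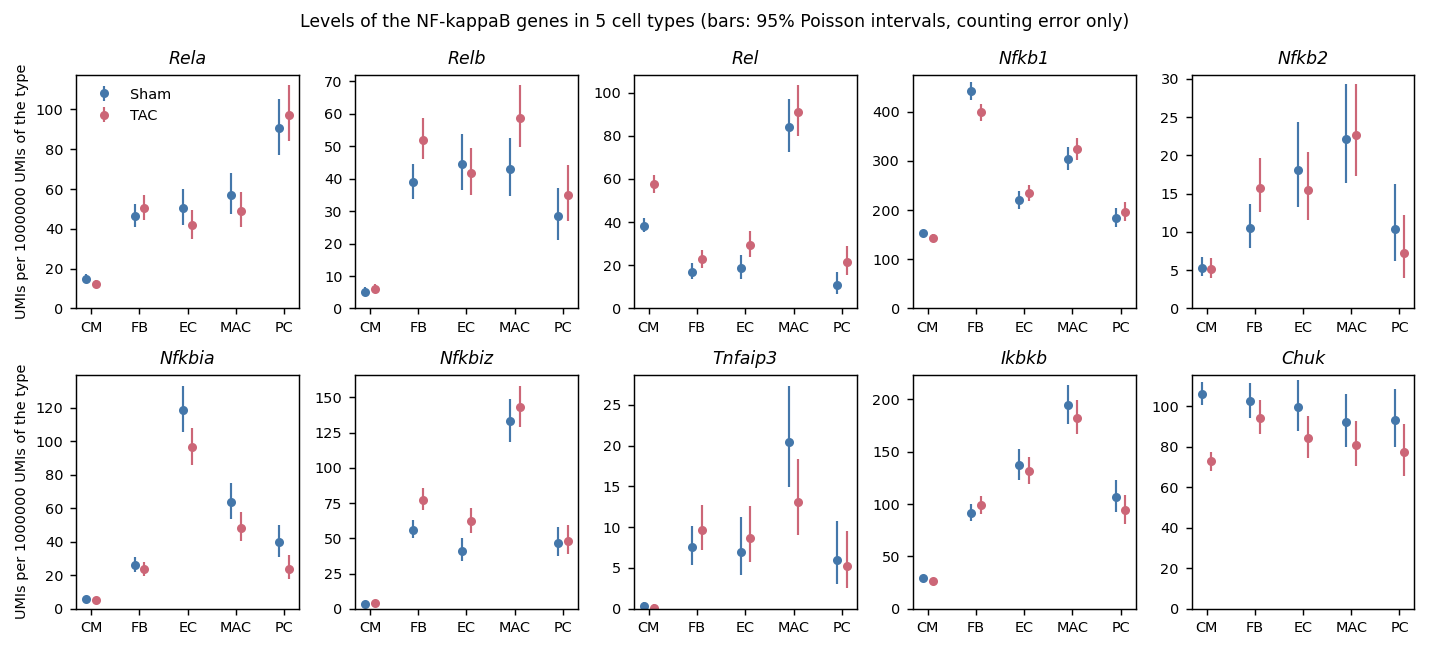
Level of each NF-κB gene in cardiomyocytes (CM), fibroblasts (FB), endothelial cells (EC), macrophages (MAC) and pericytes (PC), in UMIs per 1000000 UMIs of the type on a linear axis that starts at 0. Points are the Sham (blue) and TAC (red) libraries and bars are exact Poisson 95% intervals; Nfkbia peaks in endothelial cells, Nfkbiz in macrophages, Nfkb1 in fibroblasts and Rela in pericytes, while the Sham levels of Chuk span 92.4 to 106.1 with overlapping bars.

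Among the subunits that carry a transactivation domain, Rela, which encodes p65, was highest in pericytes, at 90.6 per 1000000 UMIs (166 UMIs) in Sham and 97.4 (187 UMIs) in TAC. In Sham its level was 57.0 in macrophages, 50.3 in endothelial cells, 46.3 in fibroblasts and 15 in cardiomyocytes. In TAC the levels in these types were 49.2, 41.9, 50.3 and 12.3. Pericytes thus stood above and cardiomyocytes below the other main types in both libraries, by 6.04-fold in Sham (interval 4.89 to 7.46) and 7.93-fold in TAC (6.39 to 9.86) from top to bottom. Macrophages, endothelial cells and fibroblasts overlapped with their neighbours in the order.

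Relb, the partner of p52 in the non-canonical pathway, was at 28.4 to 44.5 in the 4 non-muscle types of the Sham library and at 5.12 in cardiomyocytes. In TAC it reached 58.8 in macrophages and 52.1 in fibroblasts, against 43.0 and 38.9 in Sham. Endothelial cells had 44.5 in Sham and 41.9 in TAC, pericytes 28.4 and 34.9, and cardiomyocytes 5.12 and 5.99. Neighbouring non-muscle types in this order overlapped in each library, and cardiomyocytes were below all of them.

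Rel encodes c-Rel, a subunit best known from lymphoid and myeloid cells, and its pattern differed from that of the other subunits. Among the 5 main types macrophages had the highest level, 84.2 in Sham (186 UMIs) and 91.1 in TAC (237 UMIs). Cardiomyocytes came second, at 38.4 (518 UMIs) and 57.5 (750 UMIs), above endothelial cells (18.6 and 29.5), fibroblasts (17.1 and 22.8) and pericytes (10.9 and 21.3). The cardiomyocyte level was 45.6% of the macrophage level in Sham and 63.1% in TAC, against the 0.435% and 0.676% at which the 4 macrophage markers were seen in cardiomyocytes. For shares of cells, each cell was thinned to 1000 UMIs, and cells with fewer UMIs were left out. A Rel UMI was then held by 8.01% of Sham macrophages (81 of 1011 cells, interval 6.41 to 9.86) and 3.84% of Sham cardiomyocytes (95 of 2477, 3.11 to 4.67). In TAC the shares were 9.09% of macrophages (102 of 1122, 7.47 to 10.9) and 5.83% of cardiomyocytes (138 of 2367, 4.92 to 6.85). Without thinning and over all cells they were 10.6% and 16.4% in Sham, and 14.6% and 23.4% in TAC. The median cardiomyocyte held 4504.5 and 4924.5 UMIs and the median macrophage 1314.5 and 1660 UMIs. B cells, a small cluster, were higher still, with 8 Rel UMIs in 36 Sham cells (227.6 per 1000000, interval 98.2 to 448.4) and 10 in 36 TAC cells (195.2, 93.6 to 359.0). Their interval lay above that of macrophages in Sham (72.5 to 97.2) and overlapped it in TAC (79.9 to 103.5). No Rel UMI was seen in 50 Sham and 43 TAC smooth muscle cells, where 3 counts would be 23.6 and 30.7 per 1000000.

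The precursor subunits were Nfkb1, which yields p50, and Nfkb2, which yields p52. Nfkb1 was highest in fibroblasts, at 441.7 (2397 UMIs) in Sham and 398.9 (2068 UMIs) in TAC. Macrophages followed with 304.7 and 324.5, then endothelial cells with 219.8 and 234.5, pericytes with 183.8 and 196.3, and cardiomyocytes with 152.7 and 144.0. Fibroblasts exceeded cardiomyocytes 2.89-fold in Sham (2.73 to 3.07) and 2.77-fold in TAC (2.60 to 2.95), and endothelial cells and pericytes were the only neighbours with overlapping intervals, in Sham. At 1000 UMIs per cell, a Nfkb1 UMI was present in 33.7% of Sham and 29.9% of TAC fibroblasts that held at least that many UMIs. Nfkb2 was thinly counted, from 14 to 82 UMIs per type and library. Its level ranged from 5.34 in cardiomyocytes to 22.2 in macrophages in Sham and from 5.14 to 22.7 in TAC, and all neighbouring types overlapped.

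Nfkbia, Nfkbiz and Tnfaip3 had the steepest gradients. Nfkbia was highest in endothelial cells, with 118.8 per 1000000 UMIs (288 UMIs) in Sham and 96.5 (311 UMIs) in TAC. In Sham the level was 63.8 in macrophages, 39.8 in pericytes, 26.3 in fibroblasts and 6.01 in cardiomyocytes, and in TAC 48.4, 24.0, 23.5 and 4.99. The order was the same in both libraries, with no overlapping neighbours in Sham and pericytes overlapping fibroblasts in TAC. Endothelial cells exceeded cardiomyocytes 19.8-fold in Sham (15.4 to 25.6) and 19.3-fold in TAC (14.8 to 25.7). At 1000 UMIs per cell, 814 of 1904 Sham and 728 of 2249 TAC endothelial cells were left out as too shallow. Of those kept, 10.6% in Sham (8.79 to 12.5) and 8.68% in TAC (7.31 to 10.2) held a Nfkbia UMI. The shares of cardiomyocytes kept at that depth were 0.686% and 0.338%. Of the types outside the main 5, lymphatic endothelial cells had 20 UMIs in 83 Sham cells, or 110.7 per 1000000 (67.6 to 170.9), and 7 UMIs in 109 TAC cells, or 27.5 (11.1 to 56.7).

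Nfkbiz, which encodes the nuclear and inducible IκBζ, was highest in macrophages, at 133.1 (294 UMIs) in Sham and 143.0 (372 UMIs) in TAC. Fibroblasts had 56.2 and 77.5, pericytes 46.9 and 48.4, endothelial cells 41.2 and 62.3 and cardiomyocytes 3.49 and 3.99. Macrophages exceeded cardiomyocytes 38.2-fold in Sham (28.0 to 53.1) and 35.8-fold in TAC (26.8 to 48.9). The cardiomyocyte level was 2.62% and 2.79% of the macrophage level, against 0.435% and 0.676% for the macrophage markers in cardiomyocytes, and whether these UMIs come from the cardiomyocytes was not tested. Tnfaip3 followed a similar order on far fewer counts, and in TAC the intervals of macrophages and fibroblasts overlapped. Macrophages had 20.4 per 1000000 in Sham (45 UMIs) and 13.1 in TAC (34 UMIs), fibroblasts 7.55 and 9.64, endothelial cells 7.01 and 8.68, and pericytes 6.00 and 5.21. Cardiomyocytes held 5 Tnfaip3 UMIs in 2512 Sham cells and 2 in 2376 TAC cells. T cells, a small cluster, had higher levels than macrophages, 100.4 in Sham (5 UMIs, 32.6 to 234.4, above the macrophage interval of 14.9 to 27.3) and 50.1 in TAC (4 UMIs, 13.7 to 128.3).

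The catalytic kinase subunits differed from each other. Ikbkb was highest in macrophages, at 194.7 (430 UMIs) in Sham and 182.6 (475 UMIs) in TAC, ahead of endothelial cells (136.9 and 131.5), pericytes (106.9 and 94.2), fibroblasts (91.4 and 98.8) and cardiomyocytes (29.1 and 26.5). The macrophage level exceeded that of cardiomyocytes 6.68-fold (5.81 to 7.68) and 6.90-fold (5.99 to 7.95). Chuk had no such gradient in Sham, where levels ran from 92.4 in macrophages over 93.3 in pericytes, 99.8 in endothelial cells and 102.6 in fibroblasts to 106.1 in cardiomyocytes. The top and bottom of that order differed 1.15-fold with an interval from 0.992. Of the 5 main types, cardiomyocytes held the highest Chuk level in Sham and the lowest in TAC, where it was 72.8 against 77.6 to 94.3 in the other 4. Neighbouring types overlapped in both libraries, and in TAC the top and bottom of the order differed 1.30-fold (1.16 to 1.45).

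The genes whose levels followed each member most closely over the 10 profiles (5 types in 2 libraries) were found by Pearson correlation of log2 levels among 17587 genes. Usp12 (r = 0.997), Prkx (0.996) and Pan3 (0.993) were nearest to Ikbkb, Rftn1 (0.990), Mtmr2 (0.989) and H2-Q4 (0.988) to Nfkbia, and Fam172a (0.993), Galk2 (0.992) and Ap3b1 (0.992) to Nfkbiz. For Relb they were Nucb2, Tm9sf3 and Eef1a1 (0.993 to 0.990), for Rela Sipa1, Soga1 and Eps8 (0.984 to 0.977), for Rel Pts, Gm43499 and Tmem126b (0.979 to 0.974), for Nfkb1 Ddhd2, Hsph1 and Nvl (0.988 to 0.986), for Nfkb2 Def6, Polr3c and Arrdc1 (0.983 to 0.974) and for Tnfaip3 Srd5a3, Sipa1l3 and Cdc42se1 (all 0.991). Chuk, with little variation between types, had its closest match in Golgb1 at 0.911. Among the members themselves, Nfkbiz and Tnfaip3 correlated at 0.99, Ikbkb and Tnfaip3 at 0.97 and Nfkbiz and Relb at 0.97, whereas Rel ranged from -0.42 with Rela to 0.22 with Nfkb2. The 10 profiles share libraries and cell types, and these values are descriptive.

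TAC and Sham levels were compared within each of the 5 types to see how the pathway genes differed after pressure overload. Higher means a TAC to Sham ratio of 1.5 or more with an interval that does not include 1, and lower the same at the inverse ratio, among genes with at least 50 UMIs in both libraries together. Of 50 pairs of gene and type, 46 had enough UMIs. Of these, 4 were higher in TAC, Rel and Nfkbiz in endothelial cells, Rel in pericytes and Nfkb2 in fibroblasts, and 1 was lower, Nfkbia in pericytes. Over all genes and types, 8.90% of 53531 pairs were higher and 5.50% lower, so the share of members called was near that of other genes for higher and no larger for lower. By type, higher and lower genes made up 11.6% and 6.31% of all genes in cardiomyocytes (0 and 0 members), 9.65% and 3.65% in fibroblasts (1 and 0), 7.74% and 4.92% in endothelial cells (2 and 0), 7.97% and 7.63% in macrophages (0 and 0) and 5.88% and 5.22% in pericytes (1 and 1). The median log2 ratio of the members was -0.09 in cardiomyocytes, 0.23 in fibroblasts, -0.09 in endothelial cells, -0.03 in macrophages and 0.07 in pericytes, with medians over all genes from 0.00 to 0.03.

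**Figure D2:**
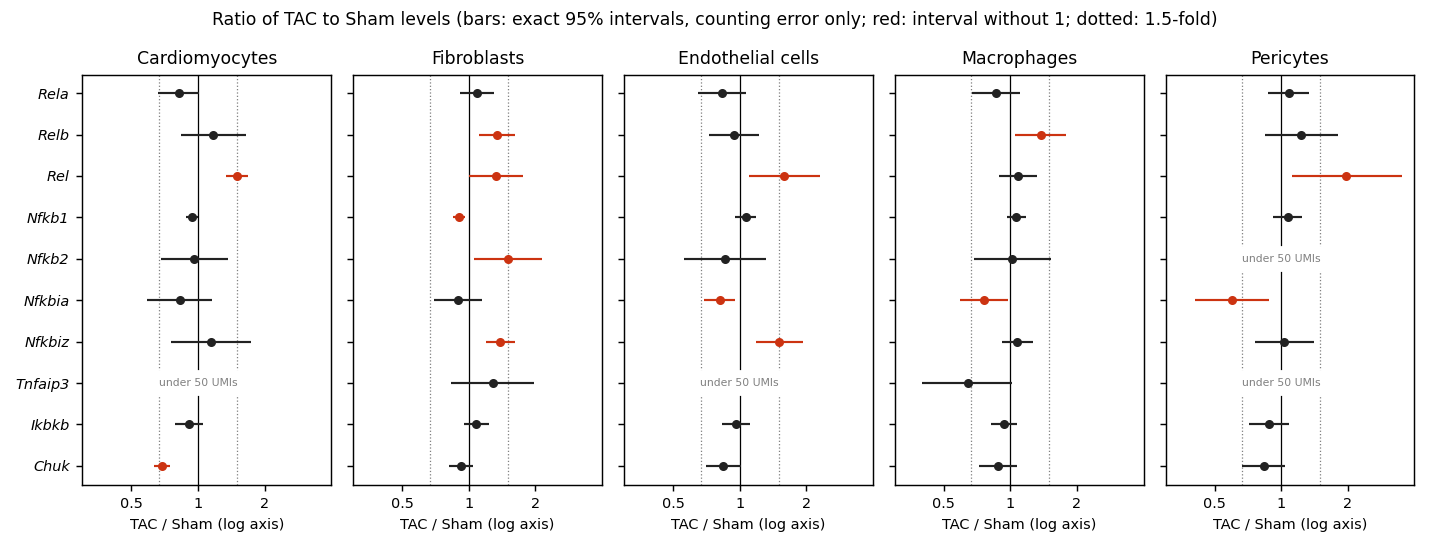
Ratio of TAC to Sham level for each gene in each of the 5 cell types on a log axis, with exact 95% intervals for counting error. Dotted lines mark 1.5-fold and its inverse, red points have an interval without 1, and pairs under 50 UMIs carry no point; the red points above 1 include Rel in 4 of the 5 types and those below 1 include Nfkbia in 3.

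Rel had a TAC to Sham ratio above 1 in all 5 types. It was 1.96 in pericytes (interval 1.12 to 3.53, 20 and 41 UMIs) and 1.59 in endothelial cells (1.10 to 2.32, 45 and 95 UMIs), which were both counted as higher. The best counted ratio was that of cardiomyocytes (518 and 750 UMIs), just under 1.5 with an interval from 1.34 to 1.68. In fibroblasts the ratio was 1.33, with a lower bound just above 1, and in macrophages, the main type with the highest Rel level, 1.08 (0.889 to 1.32). In TAC cardiomyocytes the macrophage markers were also higher, 12.4 per 1000000 against 7.49 in Sham (ratio 1.65, 1.28 to 2.14). Their part in the Rel result was not tested.

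Nfkbia had a ratio below 1 in all 5 types, from 0.893 in fibroblasts (0.696 to 1.15) and 0.830 in cardiomyocytes (0.590 to 1.16) to 0.601 in pericytes. The interval lay below 1 in pericytes (0.407 to 0.882, 73 and 46 UMIs), macrophages (0.759, 0.592 to 0.972) and endothelial cells (0.812, 0.690 to 0.957). Of these, the pericytes passed the 1.5-fold limit. The summed level of 7 glucocorticoid-induced genes, led by Zbtb16 and Fkbp5, was lower in TAC in the same 5 types. Its ratios ran from 0.383 in macrophages to 0.550 in pericytes, and Zbtb16 held most of the UMIs in the sum (74784). Gene by gene the shift was smaller, with median log2 ratios from -0.70 in macrophages to -0.22 in pericytes. In each type at least 1 of the 7 had a ratio above 1, and in pericytes 2 did. Nfkbia is also known as a gene that glucocorticoids induce, and the part of these genes' shift in its values was not tested.

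Nfkbiz was higher in endothelial cells, with 41.2 in Sham and 62.3 in TAC (ratio 1.51, 1.18 to 1.94). In fibroblasts it was 56.2 in Sham and 77.5 in TAC (1.38, 1.19 to 1.61), an interval above 1 without the 1.5-fold limit being reached. The ratios were 1.07 in macrophages (0.920 to 1.26), 1.03 in pericytes (0.762 to 1.40) and 1.14 in cardiomyocytes (0.757 to 1.74). Fibroblasts also had more UMIs of immediate-early genes in TAC, with a ratio of 1.70 for the sum of 10 such genes (1.58 to 1.82), and of ribosomal protein genes, with a ratio of 1.30. In endothelial cells these sums had ratios of 1.06 and 1.02, and the macrophage markers were 30.5 in Sham and 41.9 in TAC, or 1.77% and 2.29% of their macrophage level. Immediate-early genes respond to tissue dissociation as well as to signals in the animal, and the part of these genes and markers in the Nfkbiz values was not tested.

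In fibroblasts 4 of the 10 genes had an interval above 1. Beside Nfkbiz these were Nfkb2, at 10.5 in Sham and 15.8 in TAC (1.51, 1.06 to 2.15, 57 and 82 UMIs), Relb (1.34, 1.11 to 1.61, 211 and 270 UMIs) and Rel (1.33). Nfkb1 went the other way with a small ratio on the highest counts (0.903, 0.851 to 0.958). Of these, Nfkb2 alone was counted as higher. By that rule 9.65% of all fibroblast genes were higher, and the share of all genes with an interval above 1 was not computed. Relb had a similar ratio in macrophages (1.37, 1.05 to 1.79, 95 and 153 UMIs), while the interval of Nfkb2 included 1 there (1.02, 0.688 to 1.53).

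The kinases had ratios near or below 1. Ikbkb ratios ran from 0.881 in pericytes to 1.08 in fibroblasts, and all 5 intervals included 1. Chuk ratios were below 1 in all 5 types, with an interval that did not include 1 in cardiomyocytes only, from 106.1 per 1000000 (1431 UMIs) to 72.8 (949 UMIs). That ratio of 0.686 (0.631 to 0.745) did not pass the inverse limit of 0.667. Cardiomyocytes also had a lower sum of mitochondrial genes (ratio 0.543) and of the 8 cardiomyocyte markers (0.775) in TAC, while the interval for ribosomal protein genes included 1 (0.984 to 1.02). Rela ratios lay between 0.819 and 1.09 and all intervals included 1. Tnfaip3 had enough UMIs in 2 types, with ratios of 1.28 in fibroblasts (0.828 to 1.98) and 0.642 in macrophages (0.399 to 1.02), a difference not detectable at this depth.

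**Figure D3:**
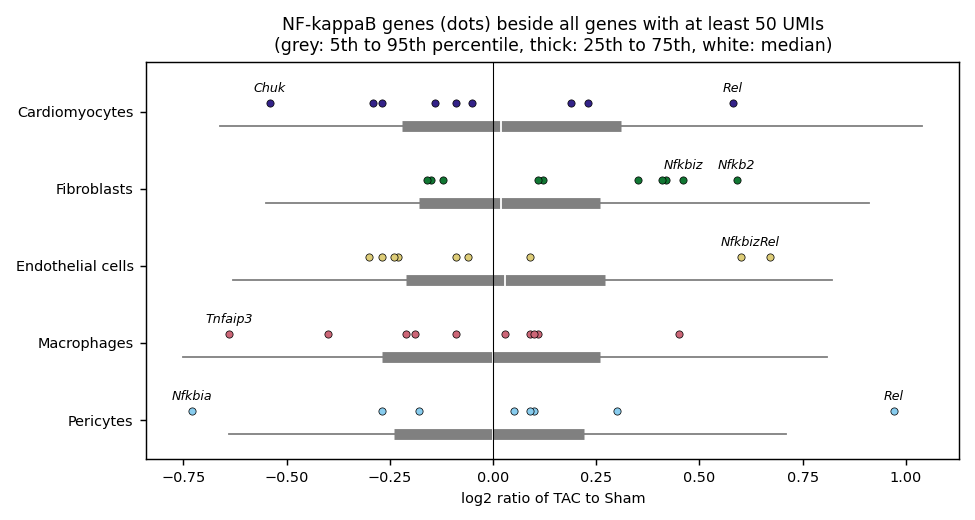
Log2 ratio of TAC to Sham of the NF-κB genes with at least 50 UMIs (dots), beside the spread of all genes with at least 50 UMIs in the same type (grey, 5th to 95th percentile, thick from the 25th to the 75th, median white). The only dots outside the grey ranges are those of pericytes for Rel at 0.97 and Nfkbia at -0.73, beyond the percentiles of -0.64 and 0.71.

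Clustering both libraries together, with the members left out of the clustering, allowed the same ratios within matched groups of cells. The higher Nfkbiz level of fibroblasts was found in the cluster led by Gfpt2, Adgrd1 and Pi16 (393 Sham and 529 TAC cells), where it was 68.8 (80 UMIs) in Sham and 128.3 (191 UMIs) in TAC, a ratio of 1.86 (1.43 to 2.45). In the largest fibroblast cluster, led by Rgs17 and Lvrn, it was 52.4 and 57.4 (1.10, 0.894 to 1.34), and in the cluster led by Nkain2 and Sntg1 56.4 and 52.1 (0.924, 0.478 to 1.73). The sum of immediate-early genes had ratios of 1.55 (1.34 to 1.79) in the Gfpt2 cluster, 1.79 (1.64 to 1.95) in the Rgs17 cluster and 1.46 (1.14 to 1.86) in the Nkain2 cluster, and its part in the Nfkbiz values of these clusters was not tested. Relb had ratios of 1.28 (0.894 to 1.84), 1.45 (1.15 to 1.83) and 0.652 (0.279 to 1.41) in the same order. The Gfpt2 cluster took a larger share of the TAC fibroblasts, and whether the pooled fibroblast ratio differs between clusters was not tested.

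Rel had an interval above 1 in both named cardiomyocyte clusters, with 43.0 in Sham and 58.3 in TAC in the cluster led by Pdzrn4 (ratio 1.36, 1.18 to 1.56) and 33.0 and 56.9 in the cluster led by Ptgds and Ankrd1 (1.72, 1.39 to 2.14). Their cell numbers shifted in opposite directions, 1126 and 1615 in the former and 1229 and 626 in the latter, and the TAC levels of the clusters overlapped. Chuk had similar ratios in both, with intervals below 1 (0.684, 0.615 to 0.760, and 0.667, 0.565 to 0.784). Among endothelial clusters, Rel went from 15.4 to 34.1 in the cluster led by Lhx6 and Dipk2b (2.21, 1.18 to 4.44, 13 and 50 UMIs), and was 18.3 and 27.4 in the cluster led by Mcf2l and Ablim3 (1.5, 0.804 to 2.81). In the cluster led by Tmem108 and Nrg1 it was 30.2 and 21.5 on 10 and 14 UMIs (0.713, 0.295 to 1.79). Nfkbiz had ratios of 1.48 (1.01 to 2.22) and 1.18 (0.706 to 1.97) in these clusters, and 1.32 (0.809 to 2.20) in the Tmem108 cluster. Immediate-early sums had ratios of 0.900 (0.787 to 1.03), 1.04 (0.912 to 1.19) and 2.06 (1.62 to 2.65) in these clusters, and their part in the Nfkbiz values was not tested. The Lhx6 cluster held 524 Sham and 902 TAC cells and the Mcf2l cluster 1112 and 919, and the part of this shift in the pooled endothelial ratios was not tested.

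Nfkbia was below 1 in all 4 endothelial clusters, with ratios of 0.863, 0.803, 0.875 and 0.632 whose intervals each included 1. Lymphatic endothelial cells had a ratio of 0.249 (0.0888 to 0.612), on 20 and 7 UMIs, of which 5 in Sham came from a single cell. In the Gfpt2 fibroblast cluster, where Nfkbiz was higher, Nfkbia was 26.7 in Sham and 29.6 in TAC (1.11, 0.684 to 1.82).

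**Figure D4:**
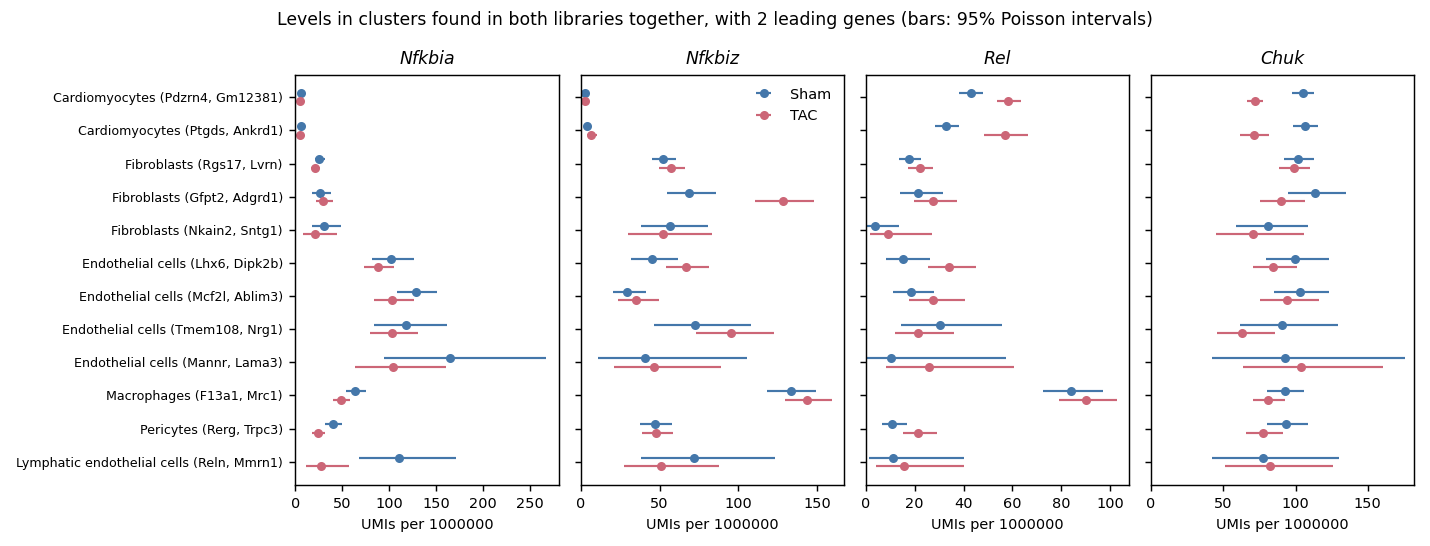
Levels of Nfkbia, Nfkbiz, Rel and Chuk in UMIs per 1000000 in clusters found in both libraries together, named by cell type and 2 leading genes, with Sham in blue, TAC in red and exact Poisson 95% intervals. The Nfkbiz bars are apart in the Gfpt2 fibroblast cluster and overlap in the other fibroblast clusters; the Rel and Chuk bars are apart in both cardiomyocyte clusters.

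The rest of the pathway was read from lists of further genes, whose counts stand beside the 8.90% of all pairs of gene and type that were higher and the 5.50% that were lower. Of 4 other inhibitors and IκB family genes, Bcl3, a nuclear IκB protein that binds p50 and p52, was the only one called. It was higher in fibroblasts, at 15.1 in Sham and 27.0 in TAC (ratio 1.79, 1.35 to 2.38), and in endothelial cells, at 10.3 and 21.4 (2.08, 1.30 to 3.42). In macrophages it was 37.6 and 51.5 (1.37, 1.03 to 1.82). Bcl3 and Nfkbiz thus had intervals above 1 in the same 2 types, fibroblasts and endothelial cells, and Bcl3 in macrophages as well.

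Of 18 kinases and adaptors upstream of the IKK complex, 87 pairs of gene and type had enough UMIs, 4 were higher and 7 lower. Irak1, a kinase of the interleukin 1 and Toll-like receptor pathway, was lower in cardiomyocytes (52.2 to 28.8, ratio 0.551, 0.485 to 0.626), endothelial cells (0.634) and pericytes (0.614), with intervals below 1 in fibroblasts (0.858) and macrophages (0.693). Bcl10, an adaptor that links CARD proteins to the pathway, was lower in macrophages (83.8 to 49.2, ratio 0.587, 0.465 to 0.740) and pericytes (0.542). Map3k14, which encodes the kinase NIK of the non-canonical pathway, was higher in pericytes (21.8 to 37.5, 1.72, 1.15 to 2.60), and Tab1, a partner of the kinase TAK1, was lower in endothelial cells (0.589).

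Among 8 receptors, 29 pairs had enough UMIs, 1 was higher and 1 lower. Tnfrsf12a, the receptor of TWEAK, was higher in fibroblasts on 21 and 39 UMIs (1.94, 1.12 to 3.48), and Tnfrsf1a, a TNF receptor, was lower in cardiomyocytes on 49 and 29 UMIs (0.612, 0.373 to 0.989). Among 7 ligands, 5 pairs had enough UMIs. Il1b, which encodes the cytokine interleukin 1β, was higher in macrophages, from 22.2 (49 UMIs) to 60.7 (158 UMIs), a ratio of 2.74 (1.98 to 3.85), and Tnfsf12, which encodes TWEAK, was lower there (0.629, 0.443 to 0.889). Among 9 ubiquitin editors and other negative regulators, 44 pairs had enough UMIs and 1 was called, Zc3h12a in fibroblasts (14.7 to 25.5, 1.73, 1.30 to 2.31), which encodes an RNase that degrades inflammatory mRNAs.

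Of 16 NF-κB target genes, 36 pairs had enough UMIs, 8 were higher and 3 lower. The median log2 ratio was 0.42 in fibroblasts over 11 genes, 0.38 in endothelial cells over 8 and -0.11 in macrophages over 9. Ccl2, a chemokine for monocytes, was higher in fibroblasts (6.82 to 21.4, 3.14, 2.15 to 4.69) and macrophages (10.4 to 28.4, 2.73, 1.69 to 4.57). Ier3 was higher in cardiomyocytes (1.92), fibroblasts (2.46) and macrophages (2.37). Vcam1, an adhesion molecule, was higher in endothelial cells (59.4 to 96.5, 1.62, 1.33 to 1.99) and lower in macrophages (83.3 to 40.4, 0.485, 0.378 to 0.619), and Birc3, an inhibitor of apoptosis, was lower in macrophages (387.1 to 227.2, 0.587, 0.528 to 0.653). Macrophages thus had called targets in both directions.

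Of the lists that are not part of the pathway, immediate-early genes had 37 pairs with enough UMIs, 7 higher and 2 lower, 5 of the higher ones in fibroblasts. Nr4a1 was higher in fibroblasts (2.79) and endothelial cells (2.81), Junb (2.16) and Btg2 (1.74) in fibroblasts, and Ier2 in fibroblasts (1.63) and pericytes (1.78). Glucocorticoid-induced genes had 35 pairs, 1 higher and 15 lower. Zbtb16 (ratios 0.184 to 0.419) and Fkbp5 (0.328 to 0.549) were lower in all 5 types, Per1 in endothelial cells (0.394), macrophages (0.512) and pericytes (0.666), and Klf9 in macrophages (0.661).

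In the types with fewer cells the members gave single or double digit counts, with Nfkb1 in lymphatic endothelial cells as the largest (46 UMIs in Sham and 66 in TAC). T cells had high levels of Nfkb1, 401.8 in Sham (20 UMIs, 245.4 to 620.5) and 476.0 in TAC (38 UMIs, 336.8 to 653.3), and of Ikbkb, 321.4 (183.7 to 522.0) and 288.1 (182.6 to 432.3). Nfkbia in contrast gave 0 UMIs in 37 Sham T cells, where 3 counts would be 60.3 per 1000000, and 2 in 58 TAC T cells. B cells held 5 Relb UMIs in each library, or 142.2 (46.2 to 331.9) and 97.6 (31.7 to 227.8) per 1000000. Epicardial or mesothelial cells had 10 Nfkbiz UMIs in 20 Sham cells (251.8, 120.7 to 463.0) and 9 in 41 TAC cells (68.2, 31.2 to 129.4).

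By position in GENCODE M21 (GRCm38), a build not named for the deposited counts, all 10 are protein-coding genes: Nfkb1 at chr3:135584655-135691547, Relb at chr7:19606217-19629438, Ikbkb at chr8:22659212-22706589, Tnfaip3 at chr10:19000910-19015657, Rel at chr11:23736847-23770970, Nfkbia at chr12:55489410-55492647 and Nfkbiz at chr16:55811375-55838899, with Rela at chr19:5637483-5648130, Chuk at chr19:44073335-44107480 and Nfkb2 at chr19:46304320-46312385. Rela and Nfkb2 lie on the plus strand and the others on the minus strand. Other annotated genes overlap 3 of them: Gm43430 overlaps Nfkb1 on the same strand, Gm15346 overlaps Ikbkb in antisense, and AC114539.1 and Psd overlap Nfkb2 in antisense. How the counting assigned reads in such stretches is not given in the sources used here, so the values of these 3 genes may hold reads of their neighbours.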

How the data were processed

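Hearts were dissociated and captured with a 10X Chromium 3-prime kit (V3 in the labels, v2 in the study's methods). UMI counts were made by the authors with Cell Ranger (7.1.0 in the submitters' processing notes, another version in the study's methods) and deposited as raw counts, a whole number for each gene and barcode, without normalization; genome build, barcode filter and the use of intronic reads are not given in the sources used here. Of 55357 gene identifiers, 94.1% are in GENCODE M21.

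Barcodes with fewer than 200 genes and Scrublet doublets (462 Sham, 4.65%, and 492 TAC, 4.95%; expected rate 0.8% per 1000 cells) were removed. Each library was clustered by itself with scanpy 1.11.5 (seed 1, 2000 variable genes, 30 components, 15 neighbours, Leiden resolution 1, after normalization to 10000 UMIs), leaving out the members, the list genes and mitochondrial genes. Clusters were named from at least 3 markers of 19 lists (each in 10% of the cells and a log2 fold of 1, with 0.05 added). In Sham, 1 cluster of 49 cells, with dendritic cell and cycling markers, stayed unnamed. In TAC, 21 cells led by Ccr2, Gm36723 and Wdfy4 had 6 macrophage markers and were counted as macrophages. With at least 500 genes per cell, a TAC cluster of 18 cells with these genes among its leading ones was named dendritic cells. UMIs were summed per type. Intervals are exact Poisson for levels, exact conditional binomial for ratios and Clopper-Pearson for shares, computed with scipy 1.17.1; where no UMI was found, 3 counts were taken as the limit. UMIs remove PCR copies. Conditions were not tested, since each is 1 library. A type against the other cells used 2-fold over genes with at least 50 UMIs in that library. On simulated endothelial libraries of 9858 genes, 100% of 182 genes changed 4-fold were recovered and 1.44% of 9676 unchanged genes were called. Counts were drawn with only the counting error that the intervals assume, so these rates check the calculation alone. Recovery of changes smaller than 4-fold, such as the ratios of the members called, was not tested. The rates cannot be carried over to differences between animals or pools, which 1 library per condition does not show.

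The members and the 8 gene lists were chosen with earlier results of these data known. The list genes named are those called in at least 1 type, at most 4 a list by number of types and then UMIs, and the 3 genes most correlated with each member (log2 of levels with 1 added); other genes were named after their values were seen. The alternatives were at least 500 genes, at most 25% mitochondrial UMIs, no doublets removed, resolution 0.5 or 2, both libraries clustered together, levels without mitochondrial genes, leaving out the cell with the most UMIs of the gene, thinning to 500 or 2000 UMIs or none, and, chosen after seeing the data, ratios divided by the median ratio of all genes.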

Additional observations from a re-analysis of the deposited data

Results flagged for a closer look

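None of the 10 members had an interval above 1 in one cell type and below 1 in another. Genes of the further lists that did so are given here as ratios of TAC to Sham; in each case the difference between the types was not tested. Ikbke, an IKK-related kinase, had 1.48 in macrophages and 0.832 in fibroblasts. Tnfrsf1a had 1.36 in fibroblasts and 0.612 in cardiomyocytes. Il1r1, the interleukin 1 receptor, had 1.22 in endothelial cells and 0.932 in fibroblasts. Tlr4, the receptor of lipopolysaccharide, had 1.13 in fibroblasts and 0.817 in cardiomyocytes. Vcam1 had 1.39 in fibroblasts and 1.62 in endothelial cells, against 0.485 in macrophages. Sod2, a mitochondrial superoxide dismutase, had 1.24 in cardiomyocytes and 0.704 in macrophages. Csf1, the growth factor of macrophages, had 1.45 in endothelial cells and 0.810 in cardiomyocytes.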

How the results depend on the processing

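Over 9 alternatives, each of the 414 recomputed ratios of the members stayed within the interval of its reported value. The 4 pairs counted as higher became 3 to 5 under the alternatives planned, and 2 when ratios were divided by the median ratio of all genes, which took Nfkbiz in endothelial cells and Nfkb2 in fibroblasts to 1.48. The pair counted as lower, Nfkbia in pericytes, was called under each alternative. Nfkbiz in endothelial cells was 1.39 with no doublets removed, and Rel in cardiomyocytes, between 1.47 and 1.51, passed the limit in 4 of 9 alternatives. The interval of Rel in fibroblasts excluded 1 in 6 of 9. Of 800 recomputed levels 5 left their interval, all with no doublets removed: Nfkbia in endothelial cells (103.1 Sham, 83.3 TAC), Ikbkb there (120.2, 117.2) and Nfkbiz in Sham macrophages (117.5). Shares of cells with a UMI follow both the depth and the cells kept, since cells below the depth were left out. At 500 UMIs, at 2000 UMIs and without thinning, Nfkbia in endothelial cells was 5.67%, 18.9% and 12.3% in Sham and 4.80%, 14.6% and 12% in TAC. Rel in macrophages was 3.82%, 15.3% and 10.6% in Sham and 5.36%, 14.5% and 14.6% in TAC. At 2000 UMIs, 212 of 1904 Sham and 404 of 2249 TAC endothelial cells were kept. Of macrophages, 308 of 1412 and 495 of 1344 were kept. No paired analysis was possible because there is 1 library of Sham and 1 of TAC, so condition, pool of animals and library cannot be told apart.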
